A study of Mus musculus with 4 samples.

Results

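The 34 genes described here encode the proteins that bring pyruvate into mitochondria and run the tricarboxylic acid (TCA) cycle, together with the enzymes that feed or drain the cycle. They were named by symbol and found through their Entrez gene identifiers, and all 34 were present among the 24415 gene rows of the count table. RNA was sequenced from bone marrow cells enriched with CD117 (KIT) microbeads, a selection for hematopoietic stem and progenitor cells (HSPCs), and each library is 1 sample. The wild-type group had 2 libraries. The inducible HIF-1α group, mice induced to make a constitutively active form of HIF-1α, also had 2, and both groups were on a C57BL/6, 129X1/SvJ background. The transgene's promoter or driver line, the inducing agent, the time of induction, the age of the mice and any pooling of animals were not stated in the labels. No label states that libraries of a group were separate animals, so the tests measure the spread between libraries, which may be technical.

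HIF-1 is the transcription factor that switches on genes for low oxygen, and its HIF-1α subunit is normally degraded when oxygen is present. Pyruvate made by glycolysis enters mitochondria through the pyruvate carrier, and the pyruvate dehydrogenase complex turns it into acetyl-CoA for the TCA cycle. Pyruvate dehydrogenase kinases phosphorylate and switch off that complex, phosphatases switch it on again, and Pdk1 is a textbook HIF-1 target. Hematopoietic stem cells are known for low mitochondrial respiration, and erythroid precursors for a high demand for succinyl-CoA, which heme synthesis uses.

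The promoter windows of Pdk1, Suclg2 and Idh1, the members with an entry and the smallest p, and of Pcx, with the most negative fold change, are shown because the results turn on these genes. They were chosen after their values were seen and come from RefSeq (GRCm38.p6), each running from 250 bases before the start site to 50 bases after it. Capitals mark the letters ACGTG and GCGTG, the core of the hypoxia response element, searched on both strands with overlaps allowed. Pdk1 lies on the plus strand (chr2:71872974-71873273, the outer of its start sites) and Suclg2 on the minus strand (chr6:95718797-95719096). Idh1 is on the minus strand (chr1:65186430-65186729) and Pcx on the plus strand (chr19:4510222-4510521), both also at the outer start.
Pdk1: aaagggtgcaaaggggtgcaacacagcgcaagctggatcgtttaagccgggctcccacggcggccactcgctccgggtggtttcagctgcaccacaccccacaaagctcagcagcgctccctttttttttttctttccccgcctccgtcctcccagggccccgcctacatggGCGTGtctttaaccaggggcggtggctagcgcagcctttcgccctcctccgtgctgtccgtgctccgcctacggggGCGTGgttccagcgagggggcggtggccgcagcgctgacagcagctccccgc
Suclg2: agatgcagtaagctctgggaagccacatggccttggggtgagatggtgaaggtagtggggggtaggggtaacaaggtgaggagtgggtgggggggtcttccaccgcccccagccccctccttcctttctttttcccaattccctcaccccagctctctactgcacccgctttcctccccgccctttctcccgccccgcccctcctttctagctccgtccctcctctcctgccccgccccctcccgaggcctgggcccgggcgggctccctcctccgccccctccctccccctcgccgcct
Idh1: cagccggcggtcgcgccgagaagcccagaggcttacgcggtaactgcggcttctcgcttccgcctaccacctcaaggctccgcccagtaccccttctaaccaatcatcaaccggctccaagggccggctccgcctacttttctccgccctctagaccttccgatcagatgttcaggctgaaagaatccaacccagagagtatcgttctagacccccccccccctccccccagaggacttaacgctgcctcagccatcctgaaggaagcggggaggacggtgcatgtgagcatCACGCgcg
Pcx: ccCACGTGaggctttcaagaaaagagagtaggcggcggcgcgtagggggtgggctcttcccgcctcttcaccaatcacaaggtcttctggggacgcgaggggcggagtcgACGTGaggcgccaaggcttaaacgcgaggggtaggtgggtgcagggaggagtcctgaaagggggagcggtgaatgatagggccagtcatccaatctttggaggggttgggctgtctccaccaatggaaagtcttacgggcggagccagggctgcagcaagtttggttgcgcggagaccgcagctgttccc
The printed Pdk1 window held GCGTG at 2 places on the plus strand, 78 and 2 bases before the start site. The Suclg2 window held neither motif, the Idh1 window held GCGTG once on the strand opposite the gene, and the Pcx window held ACGTG in a palindrome read on both strands and once more 140 bases before the start. The windows at the inner start sites, which are not printed, held 0 matches for Pdk1, 0 for Pcx and 1 for Idh1. Of the 31 members with an entry in the RefSeq promoter table, 24 (77.4%) had at least 1 match in a window, against 46.7% of 26994 genes. Counted by window, 30 of 41 member windows (73.2%) and 43.8% of 32817 windows held a match. Several Ogdh windows overlap each other, so the count by window takes in the same matches more than once. Idh3a, Me2 and Pdp1 had no entry. These shares are a description of letters and were not matched for base composition or limited to genes expressed in these libraries.

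Each library held 22221798 to 27539149 counts, so that 3 counts correspond to 0.109 to 0.135 CPM, the count scaled to a library size of 1000000 reads. That range uses total counts. All other CPM use library sizes adjusted by TMM, a scaling between libraries, by which the 3 counts of Pdk4 in wild type 2 are 0.138 CPM. Counts per member ran from 3 for Pdk4 in wild type 2 to 11903 for Idh3a in inducible HIF-1α 2. Kit, the gene of the selecting marker, was at 268 and 242 CPM in wild type and 347 and 390.4 CPM in inducible HIF-1α. Mouse Hif1a was at 179 and 168 CPM in wild type against 155 and 113 CPM, so its transcript was not higher in the induced group. It was not stated whether the induced construct contributes to the count of mouse Hif1a. Markers of mature cells differed between the groups. Of 10 markers each, 9 B cell, 8 macrophage and 3 mature neutrophil genes were called lower in inducible HIF-1α, and among 10 erythroid markers Tfrc was called higher and Hba-a1 lower. The inducible HIF-1α libraries varied more between themselves, with a biological coefficient of variation of 33.4%, against 15.1% in wild type. In bulk RNA, fewer cells of a type and less RNA per cell cannot be told apart.

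No member of the pyruvate and TCA cycle group passed an adjusted p of 0.05 in edgeR's quasi-likelihood test, where 1.12% of the 14043 genes tested did. All 34 members passed the filter on low counts. Ordered by p, Suclg2, Pdk1, Idh1 and Idh3a came first, with Idh1 lower and the others higher in inducible HIF-1α, and these were the 4 members with an unadjusted p under 0.05 (11.8%, against 16.9% of all genes). DESeq2, which called 6.37% of all genes, and limma-voom, which called 1.48%, also called 0 members. The median log2 fold change (inducible HIF-1α over wild type) over the 34 members was 0.22, with 24 positive and 10 negative values (29 and 5 with total count scaling), beside 0.0010 over all genes, of which 50.1% were positive. The CPM ranges of the groups did not overlap for 21 members (61.8%), beside 52.7% of all genes. In 17 of the 21 the inducible HIF-1α libraries were the higher ones (50% of members, beside 24.6% of genes), and in 4 the lower ones (11.8%, beside 28.2%). A single member, Pdk4, had a fold change beyond 1 on the log2 scale, beside 14.2% of genes. Standard errors (SE) of the members' log2 fold changes ran from 0.17 to 0.91 with a median of 0.22, beside 0.28 over all genes. The median of the average log2 CPM was 6.02 over the members and 4.40 over all genes. The shares given for all genes were not matched for level.

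**Figure D1:**
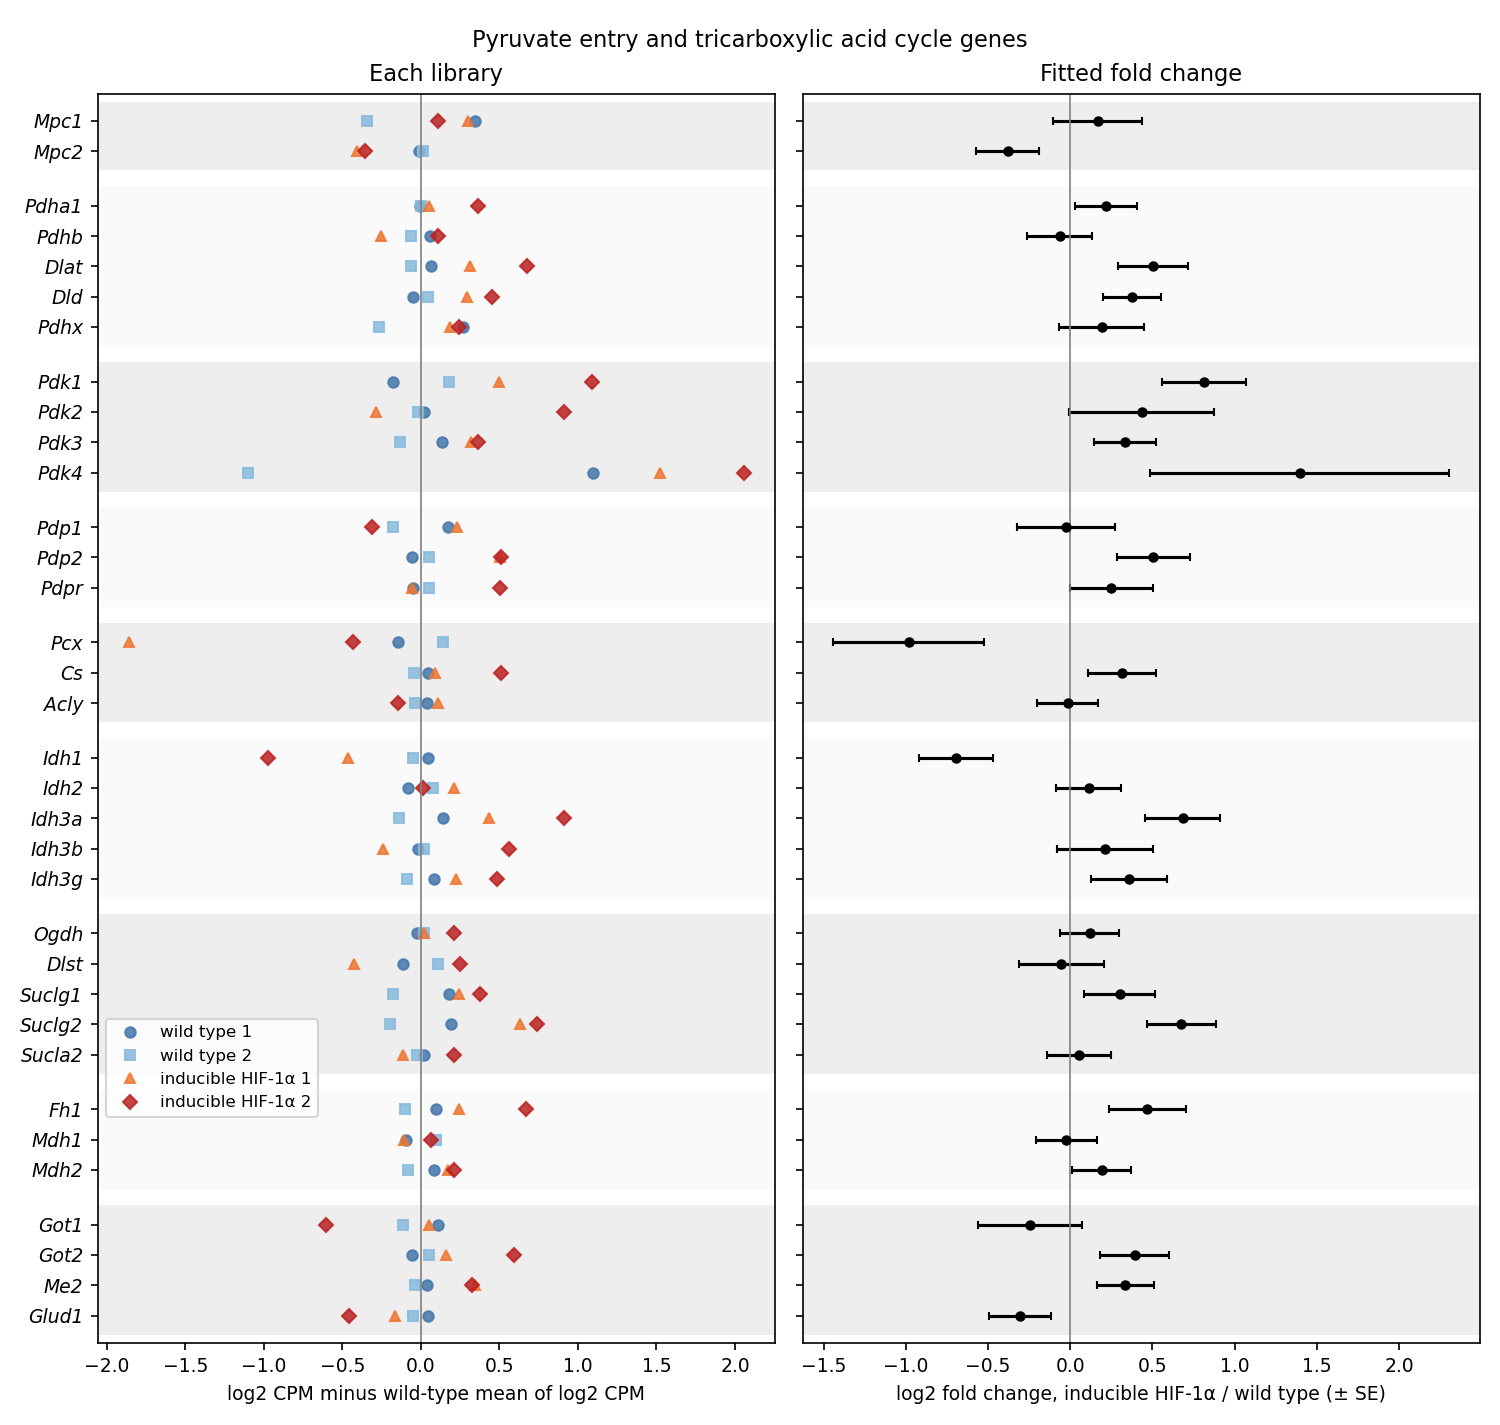
Log2 CPM of each library minus the wild-type mean of log2 CPM (left) and the fitted log2 fold change ± SE (right) for the 34 members, ordered by role with shading between roles. Points of inducible HIF-1α 2 lie to the right of those of inducible HIF-1α 1 for 26 members, and the furthest negative fitted value is that of Pcx (-0.98).

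The entry step is carried by Mpc1 and Mpc2, the subunits of the mitochondrial pyruvate carrier. Mpc2 (chromosome 1, 165461260 to 165481218) was at 45.4 and 46.1 CPM in wild type and at 34.5 and 35.8 CPM in inducible HIF-1α. Both induced libraries were below both wild-type libraries, by a log2 fold change of -0.38 ± 0.19 (SE), which was not called (adjusted p = 0.371). Mpc1 (chromosome 17, 8283787 to 8297667) was at 50.9 and 31.7 CPM in wild type and 49.4 and 43.4 CPM in inducible HIF-1α. Its wild-type libraries spanned both induced values (0.17 ± 0.27, adjusted p = 0.793). Exons of Mpc1 overlap those of 4930506C21Rik on the opposite strand over 187 bases.

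In the pyruvate dehydrogenase complex, 4 of 5 genes had positive fold changes (5 of 5 with total count scaling) and none was called. Dlat, the acetyltransferase core of the complex (chromosome 9, 50634633 to 50659780), was at 41.5 and 37.8 CPM in wild type and 49.3 and 63.2 CPM in inducible HIF-1α. The groups were separate, with a log2 fold change of 0.50 ± 0.21 (adjusted p = 0.299). Dld, the lipoamide dehydrogenase that this complex shares with 2-oxoglutarate dehydrogenase (chromosome 12, 31331562 to 31351471), was at 191 and 204 CPM against 243 and 270.3 CPM, also without overlap (0.38 ± 0.18, adjusted p = 0.343). Pdha1 and Pdhb, the α and β subunits of the decarboxylating component, had log2 fold changes of 0.22 and -0.06, the latter changing sign with the scaling, and Pdhx, which anchors the dehydrogenase in the core, had 0.19. Exons of Pdha1 overlap those of Map3k15 on the opposite strand over 603 bases, and it was not stated whether reads were counted by strand.

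The kinases all had positive fold changes, and none of the 4 was called. Pdk1 (chromosome 2, 71873215 to 71903858), whose promoter window is printed above, was at 83.6 and 107 CPM in wild type and at 134 and 202 CPM in inducible HIF-1α. Both induced libraries exceeded both wild-type libraries, and inducible HIF-1α 2 was the highest. The log2 fold change was 0.81 ± 0.26 (1.76-fold, adjusted p = 0.193). Pdk3 (chromosome X, 93764616 to 93832150) was at 73.6 and 61.0 CPM against 83.4 and 86.1 CPM, separate but with a smaller fold change of 0.33 ± 0.19 (adjusted p = 0.43). Pdk2 (chromosome 11, 95026258 to 95041371) was at 5.64 and 5.49 CPM in wild type, between the induced values of 4.57 and 10.5 CPM. Its log2 fold change of 0.44 ± 0.44 (adjusted p = 0.652) rested on inducible HIF-1α 2 and was -0.25 without that library. Pdk4 (chromosome 6, 5483351 to 5496278), the kinase linked to fasting and fatty acid use, had 17 and 3 counts in wild type and 22 and 33 counts in inducible HIF-1α. At these depths its fitted value of 1.40 ± 0.91 (adjusted p = 0.484) is imprecise.

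Scaled by exon length, Pdk3 and Pdk1 were the main kinase transcripts. Their order depends on that scaling. By counts alone, Pdk1 held the largest share of kinase reads in every library, at 51.1% and 61.7% in wild type and 60.1% and 67.4% in inducible HIF-1α. Per kilobase of exon, Pdk3 was at 31.8 ± 4.22 and Pdk1 at 18.4 ± 3.23 CPM per kb in wild type (SD, n = 2), and at 40.1 ± 0.9 and 32.4 ± 9.3 CPM per kb in inducible HIF-1α. Pdk2 was at 2.48 and Pdk4 at 0.111 CPM per kb in wild type. Pdk1 accounted for 30.1% and 39.8% of the length-scaled kinase reads in wild type and for 38.2% and 46% in inducible HIF-1α. Those ranges overlapped, since wild type 2 was above inducible HIF-1α 1. Pdk1 relative to the other kinases was 0.44 higher on the log2 scale in inducible HIF-1α (exact permutation test, two-sided p = 0.667), and 2 libraries against 2 cannot give an exact p below 0.333. Relative to Pdha1, its substrate's gene, Pdk1 was at 0.236 and 0.302 in wild type and 0.362 and 0.441 in inducible HIF-1α, without overlap (log2 difference 0.58, exact permutation p = 0.333).

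**Figure D2:**
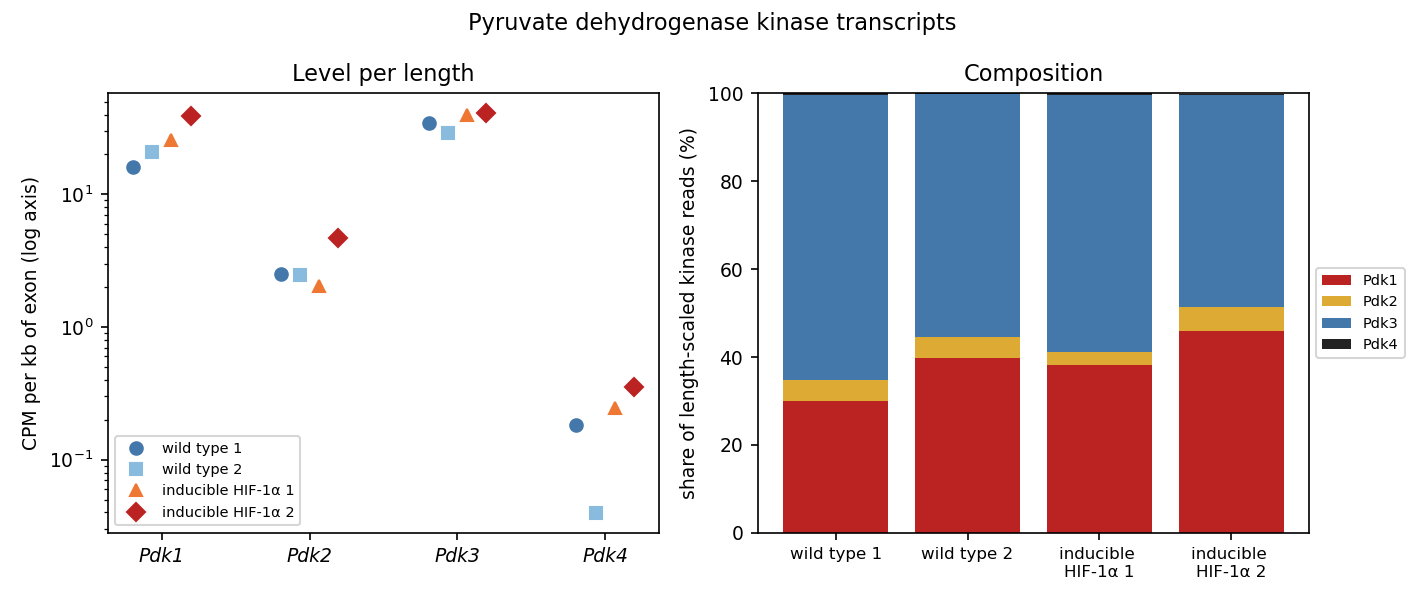
Level of the 4 kinase genes in CPM per kb of exon on a log axis (left, 1 point per library) and the share of each gene in the length-scaled kinase reads of each library (right, bars summing to 100%). Pdk1 and Pdk3 make up most of each bar, and the Pdk1 share runs from 30.1% in wild type 1 to 46% in inducible HIF-1α 2.

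Phosphatases oppose the kinases, and in wild type all 3 of their genes were at lower levels per length than Pdk1 and Pdk3 and above Pdk4, with Pdp1 and Pdp2 close to Pdk2. Pdp2, a catalytic subunit (chromosome 8, 104591472 to 104599026), was at 14.5 and 15.6 CPM in wild type and 21.3 and 21.4 CPM in inducible HIF-1α. The 2 induced libraries were nearly equal and above wild type (0.51 ± 0.22, adjusted p = 0.314). Pdp1, the other catalytic subunit, was at 14.5 and 11.4 CPM against 15.1 and 10.4 CPM, a log2 fold change of -0.03 whose sign changed with the scaling. Pdpr, the regulatory subunit (chromosome 8, 111094609 to 111139781), was at 25.8 and 27.7 CPM in wild type against 25.7 and 37.9 CPM (0.25 ± 0.25, adjusted p = 0.652). The ratio of length-scaled kinase to catalytic phosphatase reads was 9.3 and 9.87 in wild type and 9.51 and 14.0 in inducible HIF-1α. Inducible HIF-1α 1 lay within the wild-type range and inducible HIF-1α 2 above it (log2 difference 0.27, exact permutation p = 0.667).

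Pyruvate can also be carboxylated to oxaloacetate by Pcx, and citrate is made by Cs and split in the cytosol by Acly. Pcx (chromosome 19, 4510472 to 4621752) had the most negative fold change of the 34. It was at 14.9 and 18.2 CPM in wild type and 4.53 and 12.2 CPM in inducible HIF-1α, and the groups were separate although the induced libraries differed widely (-0.98 ± 0.46, adjusted p = 0.339). Without inducible HIF-1α 2 the value was -1.83 (adjusted p = 9.16e-08), and across all 13 alternatives it ran from -1.83 to -0.44, with adjusted p up to 0.985. Cs (chromosome 10, 128337727 to 128362482) was at 246 and 232 CPM against 254 and 339.9 CPM (0.32 ± 0.21, adjusted p = 0.487). Acly was at 280.4 and 266 CPM against 294 and 246 CPM, a log2 fold change of -0.01 whose sign changed with the scaling.

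Isocitrate dehydrogenases showed differences of both signs. Idh1, the cytosolic NADP-dependent enzyme (chromosome 1, 65158616 to 65186479), was at 85.5 and 80.0 CPM in wild type and 60.0 and 42.2 CPM in inducible HIF-1α. Both induced libraries were below both wild-type libraries, with a log2 fold change of -0.69 ± 0.23 (adjusted p = 0.204). Idh3a, the catalytic subunit of the NAD-dependent TCA cycle enzyme (chromosome 9, 54586511 to 54604662), was at 261 and 215 CPM in wild type and 320.3 and 445 CPM in inducible HIF-1α, separate in the other direction (0.69 ± 0.23, adjusted p = 0.211). Idh3g, a regulatory subunit, had a log2 fold change of 0.36 without overlap. Idh3b had 0.21 and Idh2, the mitochondrial NADP-dependent enzyme, 0.11, both with overlap. Per kilobase, Idh3a stood at 92.3 ± 12.7 CPM per kb in wild type (SD, n = 2), above Idh3b at 20.7 ± 0.372 and Idh3g at 13.5 ± 1.14. The ratio of Idh3a to Idh3b was 4.95 and 3.97 in wild type and 7.09 and 5.66 in inducible HIF-1α, and that of Idh3a to Idh3g was 7.09 and 6.58 against 7.90 and 9.19. Neither ratio overlapped between the groups (log2 differences 0.51 and 0.32, exact permutation p = 0.333 for each). By mean level per length, Idh3a ranked 3 among the 34 members in wild type and 1 in inducible HIF-1α.

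Next in the cycle, 2-oxoglutarate dehydrogenase makes succinyl-CoA, and succinyl-CoA ligase converts it to succinate with Suclg1 as the shared subunit and Suclg2 or Sucla2 giving preference for GDP or ADP. Suclg2 (chromosome 6, 95473009 to 95718858) was at 55.0 and 42.0 CPM in wild type and 74.7 and 80.4 CPM in inducible HIF-1α. Both induced libraries were higher and close to each other (0.68 ± 0.21, 1.60-fold, adjusted p = 0.192, the smallest of the 34). Suclg1 (chromosome 6, 73248505 to 73276907) was at 42.1 and 32.8 CPM against 44.0 and 48.3 CPM (0.30 ± 0.22, adjusted p = 0.521). Sucla2 was at 83.5 and 81.0 CPM against 75.9 and 95.0 CPM, a log2 fold change of 0.06. The ratio of Suclg2 to Sucla2 per length was 0.391 and 0.307 in wild type and 0.583 and 0.501 in inducible HIF-1α, without overlap (log2 difference 0.64, exact permutation p = 0.333). Ogdh, the decarboxylating component of 2-oxoglutarate dehydrogenase, had a log2 fold change of 0.12, and Dlst, its succinyltransferase core, had -0.05, which changed sign with total count scaling. Induced values of Dlst, 190.3 and 303.5 CPM, lay on either side of both wild-type values.

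Fumarase and the malate dehydrogenases close the cycle. Fh1, encoding fumarase (chromosome 1, 175601378 to 175625635), was at 28.9 and 25.2 CPM in wild type and 32.0 and 43.0 CPM in inducible HIF-1α (0.47 ± 0.24, adjusted p = 0.369). Mdh2, the mitochondrial malate dehydrogenase (chromosome 5, 135778649 to 135790386), was at 90.4 and 80.9 CPM against 96.5 and 99.0 CPM (0.19 ± 0.18, adjusted p = 0.624). Neither gene overlapped between the groups, and the cytosolic Mdh1 overlapped, with a log2 fold change of -0.02 that changed sign with the scaling.

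Among the aspartate, glutamate and malic enzymes, Me2, the mitochondrial malic enzyme (chromosome 18, 73764954 to 73815438), was at 88.5 and 83.9 CPM in wild type and 109.5 and 108 CPM in inducible HIF-1α (0.34 ± 0.17, adjusted p = 0.38). Got2, the mitochondrial aspartate aminotransferase (chromosome 8, 95864133 to 95888401), was at 104 and 112 CPM against 120.3 and 163 CPM (0.39 ± 0.21, adjusted p = 0.398). Both were separate between the groups, as was Glud1, glutamate dehydrogenase, in the other direction (-0.31 ± 0.19, adjusted p = 0.464). Glud1, which has the third smallest p of these genes and was added after its values were seen, was at 219 and 205 CPM in wild type and 189 and 154 CPM in inducible HIF-1α. Got1, the cytosolic aminotransferase, overlapped, with a log2 fold change of -0.24.

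Enzymes with a cytosolic and a mitochondrial form were compared within each library, where scaling between libraries plays no part. The Idh1 to Idh2 ratio per length was 1.30 and 1.09 in wild type and 0.749 and 0.604 in inducible HIF-1α. Wild-type libraries thus had more Idh1 than Idh2 reads per length and the induced libraries fewer (log2 difference -0.83, exact permutation p = 0.333). For Got1 to Got2 the ratio was 0.155 and 0.123 against 0.129 and 0.0602, and for Mdh1 to Mdh2 it was 0.889 and 1.13 against 0.825 and 0.906. The mean was lower in inducible HIF-1α for both, but the libraries overlapped (log2 differences -0.65 and -0.21, exact permutation p = 0.667 for each). For the carrier, the Mpc1 to Mpc2 ratio was 0.781 and 0.479 against 0.997 and 0.845, without overlap (log2 difference 0.59, exact permutation p = 0.333), and its wild-type libraries differed widely. Of 11 ratios compared, 6 did not overlap between the groups, and none could pass a threshold of 0.05, whether or not adjusted over the 11. For comparison, the CPM ranges of 52.7% of all genes did not overlap. Some ratios share a gene, and the share over other gene pairs was not computed, so the count of 6 is only descriptive.

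**Figure D3:**
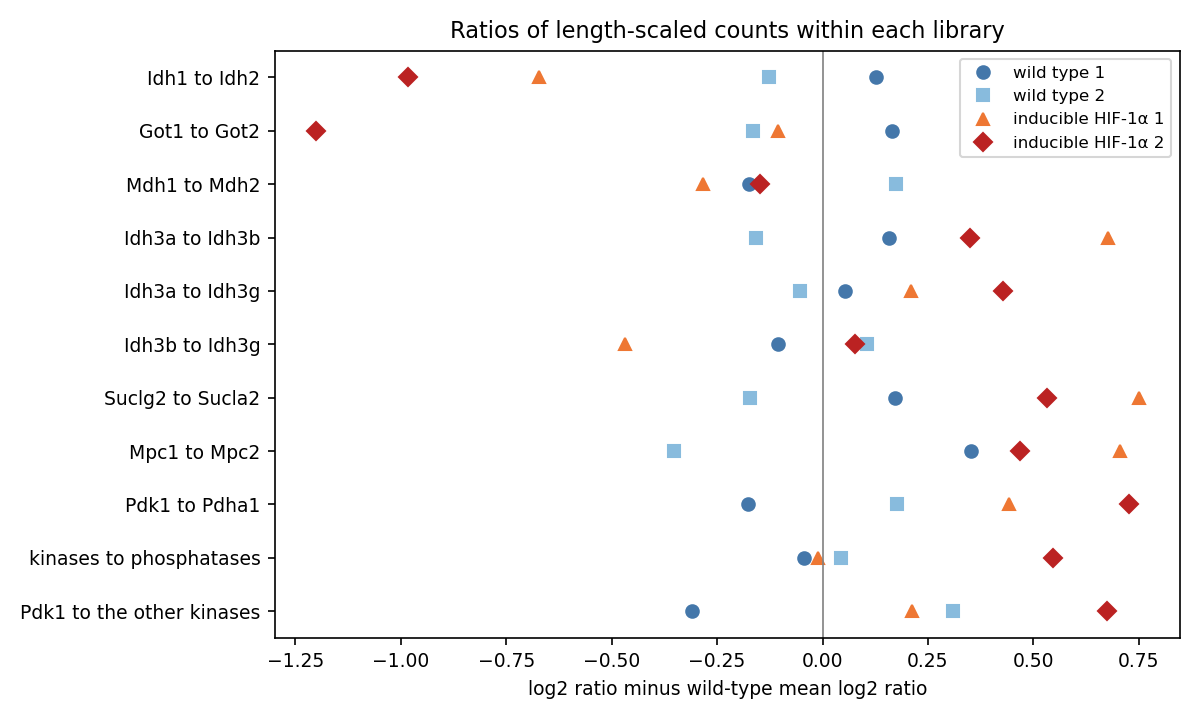
Log2 of 11 ratios of length-scaled counts in each library, minus the wild-type mean of that log2 ratio. Idh1 to Idh2 lies lower in both inducible HIF-1α libraries (log2 difference -0.83), whereas Got1 to Got2 is low in inducible HIF-1α 2 only.

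The inducible HIF-1α libraries differed from each other in the members. Inducible HIF-1α 2 was above inducible HIF-1α 1 for 26 of 34 members (76.5%, beside 49.3% of all genes). The median log2 difference was 0.18, beside -0.0046 over all genes (0.01 CPM added in both). All 5 pyruvate dehydrogenase complex genes, all 4 kinases and all 5 genes of the 2-oxoglutarate dehydrogenase and succinyl-CoA ligase group were higher in inducible HIF-1α 2. So were all 3 fumarase and malate dehydrogenase genes. Also higher there were 3 of 5 isocitrate dehydrogenases, 2 of 3 phosphatase genes and 2 of 3 pyruvate carboxylase and citrate enzymes. For the carrier it was 1 of 2 genes, and for the aspartate, glutamate and malic enzymes 1 of 4. Relative to the wild-type mean of log2 CPM, the median member stood at 0.17 in inducible HIF-1α 1 and at 0.35 in inducible HIF-1α 2. Cell type markers differed between the same libraries. All 10 erythroid markers were higher in inducible HIF-1α 2 than in inducible HIF-1α 1. They summed to 7918 and 4328 CPM in these libraries, against 6953 and 7172 CPM in wild type. That sum mixes directions, as 5 of the markers had positive and 5 negative fold changes against wild type. Tfrc was at 663 and 522 CPM in wild type and at 2262 and 3168 CPM in inducible HIF-1α. Hbb-bs was at 3475 and 3395 CPM in wild type and at 684 and 1555 CPM in inducible HIF-1α. Summed progenitor markers were at 2204 CPM in inducible HIF-1α 2, against 3957 CPM in inducible HIF-1α 1 and 3636 and 3845 CPM in wild type. The largest part of that sum was Mpo, at 1964 and 2261 CPM in wild type and 2076 and 910 CPM in the induced libraries. Of the 10 markers, 9 were lower in inducible HIF-1α 2 than in inducible HIF-1α 1. The exception was Kit, at 347 CPM in inducible HIF-1α 1 and 390 CPM in inducible HIF-1α 2. Mature neutrophil markers summed to 19390 and 17697 CPM in wild type and to 13353 and 5894 CPM in the induced libraries. Macrophage markers summed to 402 and 432 CPM in wild type and to 139.8 and 67.2 CPM in the induced libraries. Most of this sum was Vcam1, at 243 and 268 CPM in wild type and 126 and 56.2 CPM in the induced libraries. Vcam1 had a log2 fold change of -1.49, while the median of the 10 macrophage markers was -3.96. B cell markers summed to 549 and 521 CPM in wild type and to 16.9 and 6.36 CPM, with Pax5 at 0 counts in both induced libraries. The part of these cell type differences in the members' values was not tested.

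**Figure D4:**
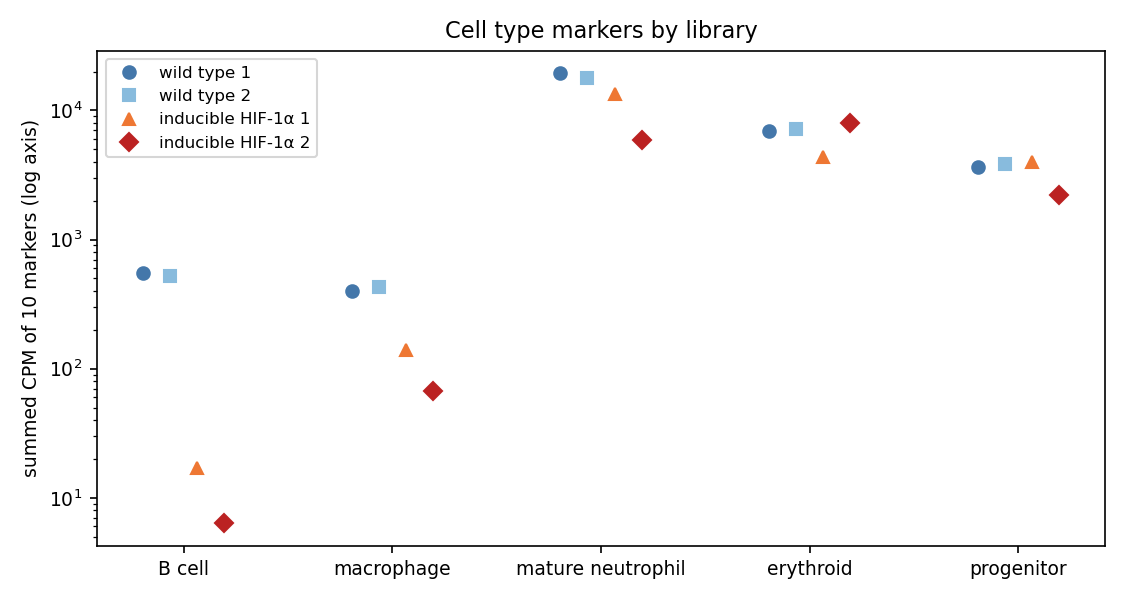
Summed CPM of 10 marker genes per cell type on a log axis, 1 point per library. B cell, macrophage and neutrophil sums are lower in both inducible HIF-1α libraries than in wild type. The erythroid sum, which adds genes with fold changes of both signs, ranges from 4328 CPM in inducible HIF-1α 1 to 7918 CPM in inducible HIF-1α 2.

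Leaving out an induced library changed the number of members called. Without inducible HIF-1α 1, 10 members were called higher (Pdk1, Pdk2, Dlat, Dld, Cs, Idh3a, Idh3b, Suclg2, Fh1 and Got2) and 2 lower (Idh1 and Glud1). These 12 are 35.3% of members, beside 32.1% of all genes, with 29.4% of members higher (all genes 12.4%) and 5.88% lower (all genes 19.7%). Without inducible HIF-1α 2, Pdk1 and Suclg2 were called higher (5.88% of members, 3.84% of all genes) and Pcx lower (2.94% of members, 7.64% of all genes). Together these were 8.82% of members, beside 11.5% of genes. The log2 fold changes of Pdk1 and Suclg2 were 1.08 and 0.72 with inducible HIF-1α 2 kept, and 0.52 and 0.66 with inducible HIF-1α 1 kept. These fits share both wild-type libraries and are not independent. The share of all genes called in both was not computed. In such fits a single induced library is assumed to vary like the wild-type pair. Without wild type 1, 0 members and 0.0138% of genes were called, and without wild type 2 the test called 0 members and 0% of genes. The adjusted p of Pdk1 reached 0.985 across the 13 alternatives, and that of Suclg2 also 0.985.

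Among members that kept their sign, the size of the log2 fold change often depended on 1 library. It was smallest without inducible HIF-1α 2 and largest without inducible HIF-1α 1 for Pdk1 (0.52 and 1.08), Cs (0.13 and 0.51), Pdha1 (0.091 and 0.36), Ogdh (0.059 and 0.21), Fh1 (0.28 and 0.66) and Got2 (0.19 and 0.59). That was also so for Idh3a (0.46 and 0.90), Dlat (0.35 and 0.67) and Idh3g (0.26 and 0.48). The same libraries set the range of the negative values of Idh1 (-0.43 and -0.97) and Glud1 (-0.13 and -0.46). A wild-type library set it for other members, with the smaller value without wild type 2 and the larger without wild type 1. These were Suclg2 (0.49 and 0.90), Suclg1 (0.13 and 0.51), Mdh2 (0.11 and 0.29), Pdk3 (0.20 and 0.49) and Pdk4 (0.71 and 2.88). Idh2 was at 0.0083 without inducible HIF-1α 1 and at 0.24 without inducible HIF-1α 2.

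Other genes of the pathway, outside the 34, were tested in the same fit. Of 30 listed genes, 27 passed the filter on low counts (Me3, Pck1 and Ogdhl did not) and 0 were called, beside 1.12% of all genes. At an unadjusted p under 0.05 were 8 of the 27 (29.6%, beside 16.9% of all genes), 7 positive and 1 negative. The median log2 fold change of the 27 was 0.26, with 20 positive and 7 negative. CPM ranges did not overlap for 12 (44.4%, beside 52.7% of all genes). In 9 of these 12 the inducible HIF-1α libraries were higher (33.3%, beside 24.6%) and in 3 lower (11.1%, beside 28.2%). Acss2, which makes acetyl-CoA from acetate outside mitochondria, was at 24.1 and 20.6 CPM in wild type and 36.4 and 75.6 CPM in inducible HIF-1α (1.32 ± 0.35, adjusted p = 0.145). Its groups did not overlap, and it had the smallest p-value of that list. Ldha, the lactate dehydrogenase subunit that competes for pyruvate and a textbook HIF-1 target, was named after its values were seen, at 231 and 241 CPM against 343 and 358 CPM (0.57 ± 0.17, adjusted p = 0.185). The aconitase and succinate dehydrogenase genes that complete the cycle had log2 fold changes from -0.08 (Sdha) to 0.76 (Aco1, the cytosolic aconitase also known as an iron regulatory protein).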

How the data were processed

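RNA was sequenced from CD117-selected mouse bone marrow cells, with 2 wild-type and 2 inducible HIF-1α libraries. Raw counts for each gene were deposited by the authors. Per the submitters' processing notes, bcl2fastq, CASAVA 1.8, TopHat and edgeR were used with build mm10; the counting tool, its annotation and its handling of strand and multi-mapped reads are not given there. Reads shared with pseudogenes or opposite-strand genes could therefore move single members, and exons of 5 members overlap another gene (also Pdpr, Idh3b and Got2). No member had a row identical to another, and libraries of a group differed by more than sampling noise (chi-square per degree of freedom 22.1 in wild type and 112 in inducible HIF-1α).

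Identifiers were matched to RefSeq (GRCm38.p6), with 81 unmatched of 24415. All genes were fitted together in edgeR 4.0.16 (R 4.3.3). Genes were kept by filterByExpr (minimum count 10), scaled by TMM and compared by a quasi-likelihood F test with no block and Benjamini-Hochberg adjustment over 14043 genes. CPM use TMM library sizes, and SE is the log2 fold change divided by the square root of F. Exon length is the union of protein-coding exons in GENCODE M21. Floors cover counting error only. The procedure was tested on simulated data with equal spread in both groups and with larger changes than those of most members. Error rates and power at the unequal spread of these libraries were not tested.

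The members and lists were chosen with earlier results of these data known. Named with full statistics are the 4 kinases and, per role, the 2 members with the smallest p, and for the other pathway genes the 2 with the smallest p, of which 1 is not reported here. Glud1 and Ldha were added after their values were seen. Alternatives were DESeq2 1.42.0, limma-voom (limma 3.58.1), 3 scalings, 2 filters, the 10 most abundant genes left out, a replicate block and each library left out.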

Additional observations from a re-analysis of the deposited data

How the results depend on the processing

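Across the 13 alternatives, 22 of the 34 members kept the sign of their log2 fold change under every alternative that could be fitted, among them Pdk1, Suclg2, Idh3a, Idh1, Pcx and Mpc2. Pdk4 gave no value with at least 1 CPM in all 4 libraries. The 9 alternatives that keep all libraries called 0 members, and their median log2 fold change over the members ran from 0.19 to 0.29 (0.22 as reported), while total count scaling moved the median of all genes to 0.076. Leaving out each library in turn gave 0 to 12 called members and medians of 0.19 to 0.34; the cause was not tested. The sign changed in 12 members. With total count scaling the log2 fold change was 0.0091 for Pdhb, 0.052 for Pdp1, 0.063 for Acly, 0.017 for Dlst and 0.052 for Mdh1. With upper quartile scaling it was 0.011 for Pdp1, 0.024 for Acly and 0.017 for Mdh1, and for Acly it was 0.0020 with no filter and 0.0036 without the 10 most abundant genes. With each library left out it ran from -0.14 to 0.57 for Mpc1, -0.22 to 0.10 for Pdhb, -0.052 to 0.50 for Pdhx, -0.25 to 0.91 for Pdk2, -0.33 to 0.25 for Pdp1, -0.022 to 0.50 for Pdpr, -0.15 to 0.15 for Acly, -0.21 to 0.56 for Idh3b, -0.39 to 0.24 for Dlst, -0.080 to 0.21 for Sucla2, -0.096 to 0.072 for Mdh1 and -0.61 to 0.085 for Got1. Pdk1 relative to the other kinases ran from 0.13 to 0.75 and the kinase to phosphatase ratio from -0.011 to 0.55.

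Between libraries of equal replicate number, deviations from the group means had a correlation of 0.077 over the genes tested. Each group gives a single difference between libraries, so this value cannot decide whether equal numbers pair libraries. No label states such a pairing. With the replicate block 0 members were called, their median was 0.21 and 381 of all genes were called, against 157 without it. Over all genes, DESeq2 called 953, no filter 747, 1 CPM or more required in every library 78 and total count scaling 97. Without wild type 1 the test called 2 genes, without wild type 2 it called 0 (703 at an unadjusted p under 0.05), without inducible HIF-1α 1 it called 4669 and without inducible HIF-1α 2 it called 1666. Depth limits Pdk4, whose wild-type counts were 17 and 3.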
